A study of Mus musculus with 12 samples.

Results

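The small leucine-rich proteoglycans described here are the 10 genes *Bgn*, *Dcn*, *Lum*, *Fmod*, *Prelp*, *Ogn*, *Omd*, *Aspn*, *Podn* and *Chad*, taken by gene symbol from the 26699 genes counted in bulk RNA-seq of sorted mouse synovial macrophages. All 10 were in the count files, and 4 of them (*Bgn*, *Dcn*, *Fmod* and *Prelp*) were among the 11927 genes with enough counts in at least 3 libraries to be tested. Whole synovium from adult wild-type C57BL/6 mice (of C57BL/6J background in the study's methods) was incubated ex vivo with CGRP (calcitonin gene-related peptide, a neuropeptide of sensory nerve endings) at 100 nM, or with vehicle as control, for 4 h, and macrophages were then sorted from the digested tissue. There were 4 groups of 3 libraries: CD11c-MHCII+ macrophages (called IAIE in the labels) and CD11c+MHCII+ macrophages (called CD11c), each without and with CGRP. The agent was applied to the whole explant and not to sorted cells. The labels do not say whether the 3 libraries of a group came from separate mice, so p-values measure the spread between these libraries, which may be technical.

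Small leucine-rich proteoglycans are secreted matrix proteins built around a run of leucine-rich repeats, and most bind collagen fibrils and control how the fibrils assemble. Many carry chondroitin sulfate, dermatan sulfate or keratan sulfate chains, and decorin and biglycan also bind growth factors such as TGF-β, while biglycan released from matrix can engage Toll-like receptors on macrophages. In joints they are best known as products of fibroblasts, chondrocytes and tendon cells.

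Several of the genes are neighbours. In GRCm38, the build of the authors' alignment (mm10), *Dcn* (chr10:97479609-97518143, + strand) lies next to *Lum* (chr10:97565128-97572703, + strand), and *Prelp* (chr1:133910304-133921414, - strand) lies next to *Fmod* (chr1:134037254-134048277, + strand). *Aspn* (chr13:49544443-49567565), *Omd* (chr13:49582462-49592822) and *Ogn* (chr13:49608046-49624501) follow each other on the + strand, all inside *Cenpp*, which runs the other way. *Chad* (chr11:94565047-94569127, + strand) lies inside *Acsf2* on the other strand, *Bgn* is on the X chromosome (chrX:73483602-73495933, + strand) and *Podn* on chromosome 4 (chr4:108014791-108096445, - strand). The strand setting of the counting is not given in the sources used here. Of the exon bases of *Prelp*, 9.7% overlap an antisense gene, *Gm15851*, whose reads could not then be told apart, and for *Aspn* the overlap with *Cenpp* was 0.3%.

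The 250 bases before the start site are shown for *Fmod* and *Prelp*, the neighbours on chromosome 1 that were called together in the CD11c subset, and for *Chad*, which had the highest count of the 10 genes in any library. The sequences are from RefSeq on GRCm38.p6 and read 5′ to 3′ on the gene's own strand, and capitals mark a match to the TATA box letters TATAAA (or TTTATA, its other strand).
*Fmod*, chr1:134037004-134037253, + strand: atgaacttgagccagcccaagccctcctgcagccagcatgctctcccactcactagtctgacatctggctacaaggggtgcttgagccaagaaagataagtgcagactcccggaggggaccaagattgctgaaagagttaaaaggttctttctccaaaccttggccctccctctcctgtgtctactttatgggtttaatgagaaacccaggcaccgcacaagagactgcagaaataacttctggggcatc
*Prelp*, chr1:133921402-133921651, - strand: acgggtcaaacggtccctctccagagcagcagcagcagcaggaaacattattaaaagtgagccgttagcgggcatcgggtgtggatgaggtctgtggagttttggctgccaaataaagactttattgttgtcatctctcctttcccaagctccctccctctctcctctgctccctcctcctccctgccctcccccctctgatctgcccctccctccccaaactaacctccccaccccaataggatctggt
*Chad*, chr11:94564797-94565046, + strand: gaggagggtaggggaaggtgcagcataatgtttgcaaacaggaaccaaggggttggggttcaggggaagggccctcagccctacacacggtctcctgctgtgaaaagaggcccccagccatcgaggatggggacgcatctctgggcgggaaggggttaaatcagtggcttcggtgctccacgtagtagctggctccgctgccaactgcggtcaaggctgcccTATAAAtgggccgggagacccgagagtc
The *Chad* window held 1 such match and the other 2 windows held none, against 12.3% of 32536 windows of the same length with at least 1. The receptor for CGRP signals through cyclic AMP, so the windows were also searched on both strands for the cyclic AMP response element half-site (TGACG or CGTCA), present in 17.9% of all windows, and for the AP-1 site TGANTCA, present in 6.73%. Neither was found in these 3 windows. *Bgn*, *Ogn*, *Omd*, *Aspn* and *Podn* also had windows, and none of those held either motif. Windows for *Dcn* and *Lum* were not used here.

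The libraries held 2127191 to 5649698 counts in total. Levels are in CPM, counts scaled to a common library size with edgeR's TMM factors, and a floor of 3 counts in a library is worth 0.531 to 1.41 CPM when scaled by the total alone. *Itgax*, which encodes CD11c, was higher in the CD11c subset than in IAIE by 5.33 ± 0.40 (log2, SE) in control tissue and by 4.44 ± 0.38 with CGRP, and the macrophage receptor *Csf1r* was at 1439 ± 145 CPM (SD, n = 3) in IAIE control and 595 ± 67.3 CPM in CD11c control.

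The 10 genes together were a small share of every library, from 0.000267% to 0.0314% of its counts. Their summed level was 71.0, 97.8 and 87.3 CPM in the IAIE control libraries and 30.4, 9.72 and 12.4 CPM in the IAIE CGRP libraries. In the CD11c subset it was 31.8, 2.57 and 3.22 CPM in control and 127, 336 and 38.6 CPM with CGRP. The sum was thus lower with CGRP in IAIE and higher with CGRP in CD11c, with no overlap between the libraries of either pair of groups.

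Which gene made up the sum differed from library to library within a group. *Fmod* gave 37.6% of the counts of the 10 genes in IAIE control replicate 1, and *Dcn* gave 43.4% and 45.1% in replicates 2 and 3. In the CD11c CGRP group *Dcn* led in replicate 1 with 45.3%, *Chad* in replicate 2 with 47.2% and *Fmod* in replicate 3 with 45.6%. In CD11c control replicate 1, 88.5% of the counts were *Bgn*.

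**Figure D1:**
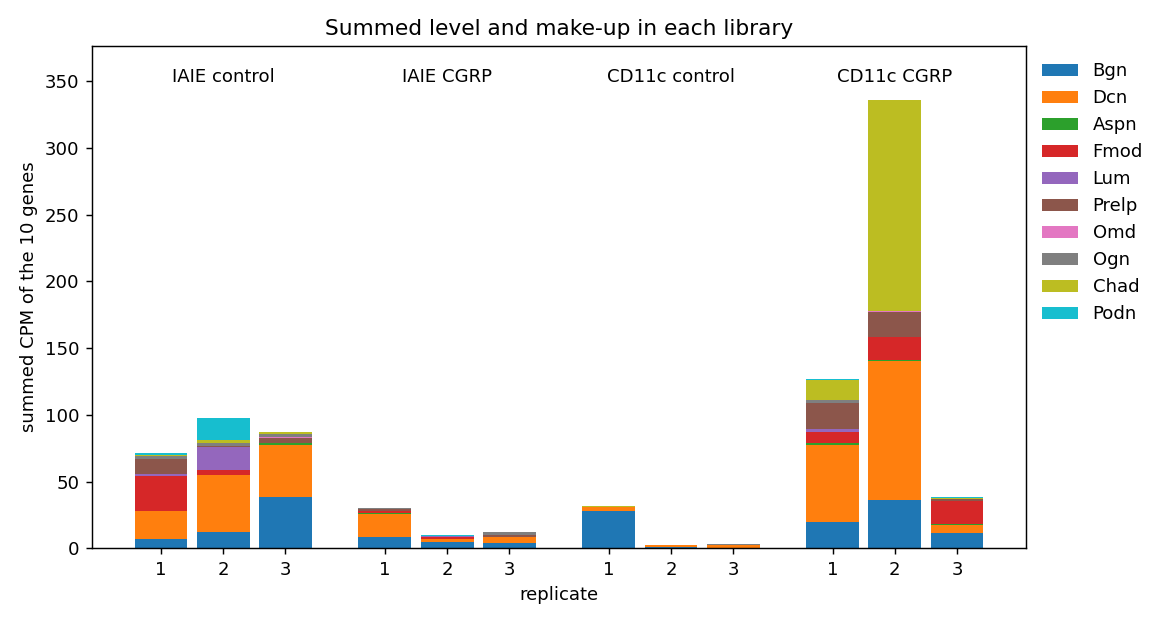
Summed level of the 10 genes in CPM (y axis) in each of the 12 libraries (x axis, by group and replicate), with each gene's part in its own colour. CD11c CGRP replicate 2 is the highest at 336 CPM, and the leading gene changes between replicates of 1 group.

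Among the class I members, which bind collagen and TGF-β, *Dcn* (decorin) was at 20.5, 42.4 and 39.4 CPM in IAIE control and at 17.7, 2.43 and 4.53 CPM in IAIE CGRP. In CD11c it was at 2.45, 1.40 and 1.93 CPM in control and at 57.3, 104 and 6.41 CPM with CGRP. Every IAIE control library was above every IAIE CGRP library, and every CD11c CGRP library was above every CD11c control library. The third CD11c CGRP library was the closest to control.

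*Bgn* (biglycan) was at 7.13, 12.3 and 38.0 CPM in IAIE control and at 8.20, 4.62 and 3.96 CPM in IAIE CGRP, with overlap. In CD11c control it was at 28.1 CPM in replicate 1 and at 0.701 and 0.429 CPM in the others, and with CGRP it was at 19.9, 35.9 and 11.2 CPM. The CD11c control group was therefore split, with 1 library at the level of the CGRP libraries. *Aspn* (asporin), the third class I gene, had 17 counts in all 12 libraries together, 11 of them in CD11c CGRP.

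Among the class II members, many of which carry keratan sulfate, *Fmod* (fibromodulin) was at 26.7, 4.01 and 0 CPM in IAIE control and at 1.59, 1.70 and 0 CPM in IAIE CGRP. In CD11c control it had 0, 0 and 1 count, and with CGRP it was at 8.63, 17.8 and 17.6 CPM. Its 3 CD11c CGRP libraries were high together, at 14.7 ± 5.25 CPM (SD, n = 3), including the third, where *Dcn* was low.

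*Prelp* (the proline and arginine-rich end leucine-rich repeat protein, thought to anchor basement membrane to connective tissue) was at 11.5, 1.15 and 3.58 CPM in IAIE control and at 1.32, 0.243 and 1.13 CPM in IAIE CGRP. In CD11c control it had 0, 1 and 0 counts, and with CGRP it was at 19.6, 18.3 and 1.42 CPM. Like *Dcn*, it was lowest in the third CD11c CGRP library.

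**Figure D2:**
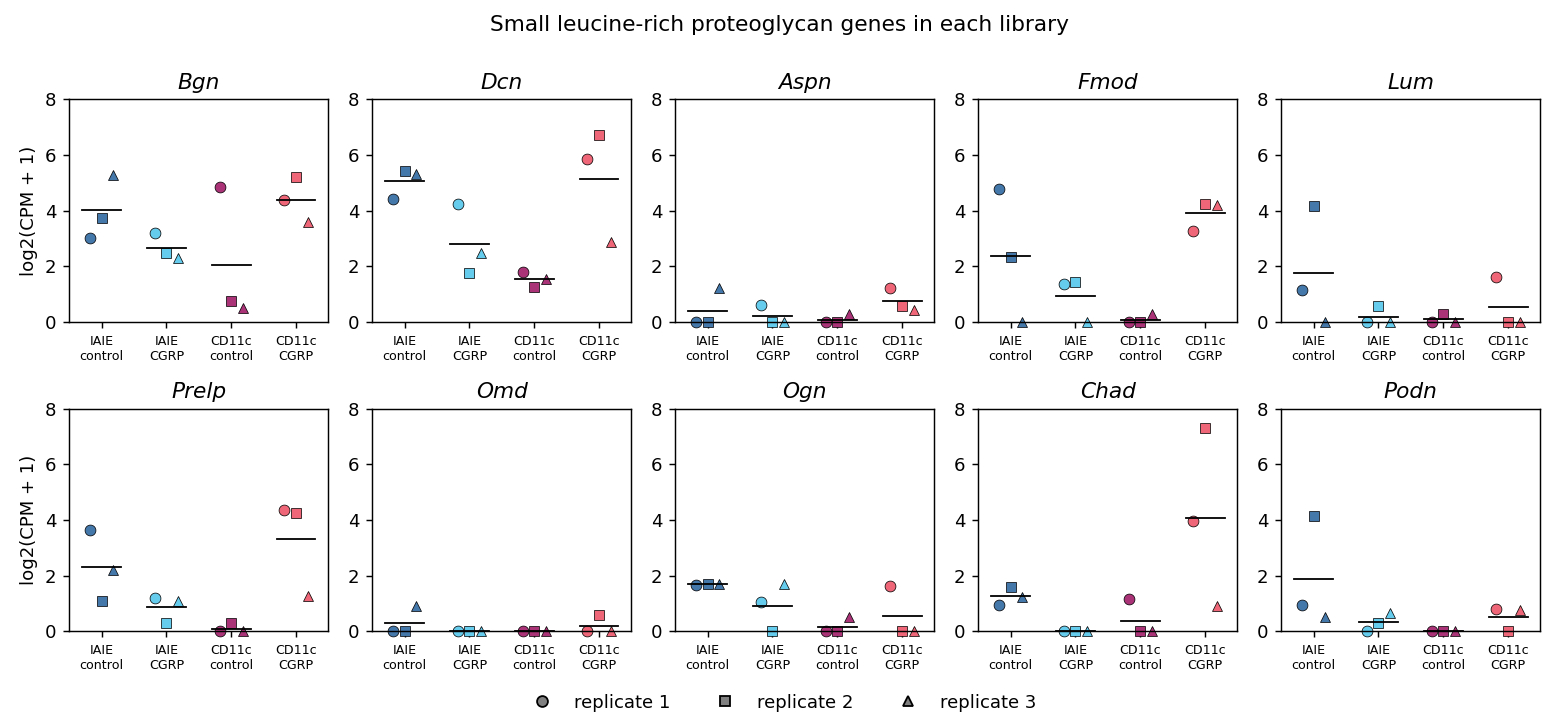
Level of each of the 10 genes as log2(CPM + 1) (y axis) by group (x axis), 1 point per library with the replicate as its shape and the group mean as a line. *Dcn*, *Fmod* and *Prelp* have all 3 CD11c CGRP points above all 3 CD11c control points, while *Lum*, *Podn* and *Chad* each owe their highest point to 1 library.

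The first comparison asks what CGRP changed in the CD11c subset. Of the 4 tested genes, 3 rose: *Dcn* by 4.88 ± 0.84 (log2 fold change, SE), *Fmod* by 6.96 ± 1.42 and *Prelp* by 6.79 ± 1.27, with adjusted p = 0.00058, 0.0026 and 0.0012 in edgeR's quasi-likelihood test. Over all tested genes, 10.9% were called in this comparison and 6.29% rose. *Bgn* was at 1.35 ± 0.88 with adjusted p = 0.42. *Fmod* and *Prelp* met the filter only through this comparison's own libraries: outside CD11c CGRP each reached its cutoff of 2.36 CPM in 2 libraries, where 3 were needed, so the count of 3 of 4 is a description and carries no weight as a share. The same 3 genes had no overlap between the groups in the direction of a rise, which held for 15.4% of all tested genes.

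Because *Fmod* and *Prelp* had 1 count each over the 3 CD11c control libraries, their fitted fold changes depend on the prior count. As ratios of pooled counts scaled to library size, *Fmod* (216 against 1 count) was 165-fold higher with CGRP, with a 95% interval of 29.4 to 6562, and *Prelp* (184 against 1) was 141-fold higher, with an interval of 25.0 to 5594. *Dcn* (757 against 21) was 27.6-fold higher, from 17.9 to 44.9. These exact intervals cover counting error only and not the spread between libraries, and reads were PCR-amplified without molecular identifiers in the counts.

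The calls on *Dcn*, *Fmod* and *Prelp* in CD11c were kept in all 12 fits that left out 1 library. Those that left out an IAIE library, which is not in this comparison, could hardly move the fold change (*Dcn* at 4.87 to 4.88). Only those that left out a CD11c library are a check on it. With limma-voom and quality weights *Fmod* was still called (adjusted p = 0.014), but *Dcn* (0.18) and *Prelp* (0.13) were not, and *Bgn* was (0.016). In the same CD11c libraries *Itgax* was lower with CGRP, at 219 to 270 CPM in control and 107 to 121 CPM with CGRP (a log2 fold change of -1.03 ± 0.30, edgeR adjusted p = 0.029). In all, 4 of 5 sort markers fell, where 4.59% of all tested genes fell. The 12 macrophage markers summed to 9680 to 12235 CPM in CD11c control and 7557 to 9198 CPM in CD11c CGRP, and their part in the rise of these genes was not tested. *Bgn* turned on CD11c control replicate 1, without which it rose by 5.23 with adjusted p = 0.00048.

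In the IAIE subset all 4 tested genes had a negative fold change with CGRP, and 1 passed the test, where 9.21% of all tested genes were called and 3.89% fell. *Fmod* fell by 3.30 ± 1.02 on the log2 scale (adjusted p = 0.048, edgeR). *Dcn* was at -2.08 ± 0.69 (adjusted p = 0.070), *Prelp* at -2.55 ± 0.94 (adjusted p = 0.11) and *Bgn* at -1.75 ± 0.91 (adjusted p = 0.27). In IAIE 3 of 5 sort markers fell, and the macrophage markers summed to 11426 to 14929 CPM in control and 11186 to 12580 CPM with CGRP. *Dcn* was the only one of the 4 without overlap between the groups, which in this direction held for 12% of all tested genes.

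The *Fmod* call rested on IAIE control replicate 1, the library with 86 of the 100 counts of that group: without it the log2 fold change was -1.07 and the adjusted p 0.63. It was also lost in 7 of the other fits that left out 1 library and in 4 other analyses, namely DESeq2 (0.24), limma-voom (0.56), the replicate block (0.088) and 1 surrogate variable (0.064). *Dcn* was called with the replicate block (adjusted p = 0.0487) and in 3 of the 12 fits that left out 1 library.

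**Figure D3:**
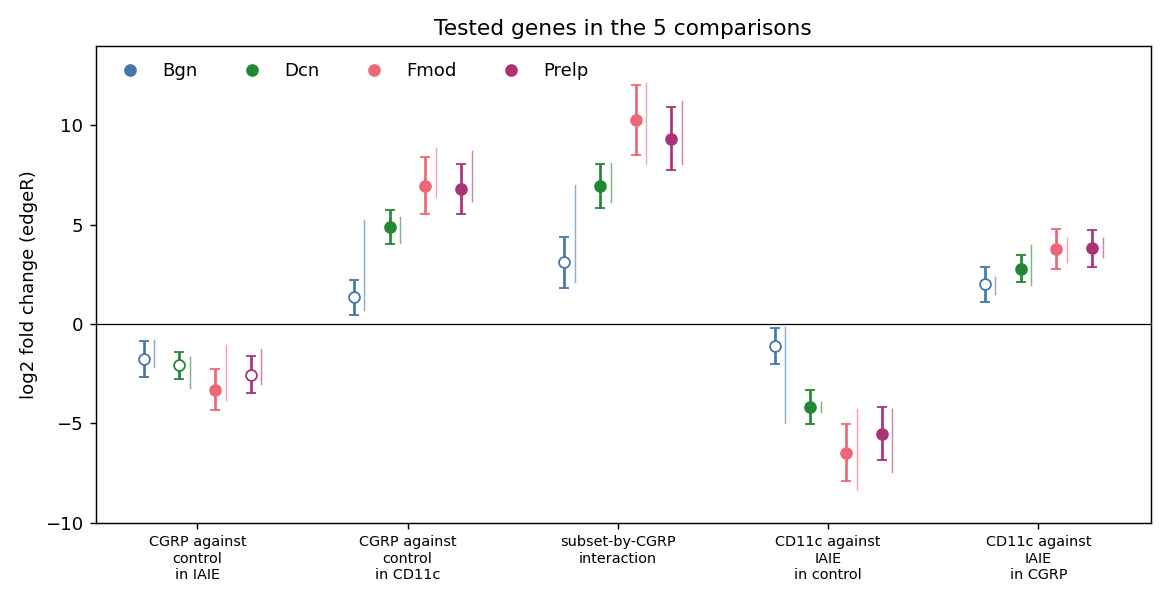
Log2 fold change from edgeR (y axis) of *Bgn*, *Dcn*, *Fmod* and *Prelp* in the 5 comparisons (x axis), with bars for 1 SE, filled points for adjusted p under 0.05 and a thin line for the range over the fits that left out 1 library. All 4 genes are below 0 for CGRP in IAIE, where *Fmod* alone is filled, and above 0 for CGRP in CD11c, where *Dcn*, *Fmod* and *Prelp* are filled.

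The second question is whether the response to CGRP differed between the subsets, tested as an interaction (the CD11c effect minus the IAIE effect). It was called for *Dcn* at 6.96 ± 1.10 (log2, adjusted p = 0.0090), *Fmod* at 10.26 ± 1.76 (adjusted p = 0.015) and *Prelp* at 9.34 ± 1.60 (adjusted p = 0.015), and not for *Bgn* at 3.10 ± 1.27 (adjusted p = 0.47). These 3 genes were among 18 called in all, or 0.151% of tested genes, and among the 0.134% called with a positive interaction. *Fmod* and *Prelp* met the filter only through the CD11c CGRP libraries, so this count is a description and carries no weight as a share. Their estimates also rest on 1 count each over the CD11c control libraries. Another 3 of the 18 were markers of other joint cells, *Thbs4* at 10.44 ± 0.98 (adjusted p = 2.7e-05), *Cilp* at 12.50 ± 2.46 (adjusted p = 0.045) and *Col6a3* at 12.68 ± 1.61 (adjusted p = 0.0013), named after their values were seen, and their part in the members' interaction was not tested. The estimate stayed positive for all 4 genes under every alternative run. All 3 calls were lost without CD11c control replicate 2 (adjusted p from 0.0505 to 0.0739), without CD11c control replicate 3 (0.057 to 0.093) and with limma-voom (0.26 to 0.45). *Fmod* and *Prelp* were also lost without IAIE control replicate 1 (both 0.055) and without IAIE CGRP replicate 2 (0.053 and 0.054).

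In control tissue the subsets were compared directly. *Dcn* was lower in CD11c than in IAIE by a log2 fold change of -4.17 ± 0.85 (adjusted p = 0.0015), *Fmod* by -6.47 ± 1.45 (adjusted p = 0.0032) and *Prelp* by -5.53 ± 1.34 (adjusted p = 0.0054), where 21.2% of all tested genes were called and 10.9% were lower. *Bgn* was at -1.10 ± 0.90 (adjusted p = 0.44). *Dcn* and *Prelp* did not overlap between the subsets, as held for 17.5% of all tested genes in this direction. As pooled counts, *Dcn* (21 against 302) was 18.3-fold lower in CD11c, with an interval of 11.8 to 30.0. The group totals of 1 count in CD11c put *Fmod* 127-fold lower, from 22.3 to 5078, and *Prelp* 62.4-fold lower, from 10.7 to 2514. IAIE control replicate 1 held 86 of the 100 *Fmod* counts and 37 of the 49 *Prelp* counts of its group, and without it the log2 fold changes were -4.25 and -4.26 (adjusted p = 0.049 and 0.050). With limma-voom none of these 3 was called (0.12, 0.19 and 0.22), while *Bgn* was (0.022).

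With CGRP the order was the other way round. *Dcn* was higher in CD11c than in IAIE by 2.79 ± 0.69 (adjusted p = 0.0073), *Fmod* by 3.79 ± 1.01 (adjusted p = 0.012) and *Prelp* by 3.81 ± 0.92 (adjusted p = 0.0063), where 16.9% of all tested genes were called and 8.36% were higher. *Bgn* was at 2.00 ± 0.89 (adjusted p = 0.15). *Bgn*, *Fmod* and *Prelp* did not overlap between the subsets here, as held for 17.8% of all tested genes in this direction, whereas *Dcn* overlapped through the third CD11c CGRP library. The *Dcn* call was lost without CD11c CGRP replicate 2 (adjusted p = 0.058), and those of *Dcn* and *Prelp* with limma-voom (0.16 and 0.22), and that of *Fmod* with DESeq2 (0.14). These comparisons share their libraries with the CGRP comparisons and are not independent of them. *Fmod* and *Prelp* met the filter only through the CD11c CGRP libraries, so their calls here carry no weight as a share.

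The other 6 genes did not pass the filter on low counts, which asks for enough counts in 3 libraries, and are given as counts. *Chad* (chondroadherin, a class IV protein of cartilage that binds collagen and integrins) had 77, 641 and 5 counts in the CD11c CGRP libraries and 3, 0 and 0 in CD11c control. It had 3, 7 and 3 counts in IAIE control and 0 in all 3 IAIE CGRP libraries. Replicate 2 of CD11c CGRP alone held 86.7% of its 739 counts. Pooled, *Chad* was 185-fold higher with CGRP in CD11c, with an interval of 62.9 to 897, and 28.7-fold, from 9.49 to 142, without that library. In IAIE its 13 control counts against 0 give a level at least 6.39-fold lower with CGRP, taking 3 counts over the group as the floor.

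*Lum* (lumican, a class II keratan sulfate proteoglycan) and *Podn* (podocan, class V) were carried by another library. *Lum* had 4, 59 and 0 counts in IAIE control, and *Podn* had 3, 58 and 1. In IAIE CGRP they had 0, 2 and 0 counts and 0, 1 and 3 counts. IAIE control replicate 2 thus held 76.6% of all *Lum* counts and 78.4% of all *Podn* counts.

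Pooled over the group, *Lum* was 46.5-fold lower with CGRP in IAIE (interval 12.3 to 392) and *Podn* 22.9-fold lower (8.50 to 86.6). Without IAIE control replicate 2 the ratio of CGRP to control was 0.207 for *Lum* (0.0187 to 1.44) and 0.414 for *Podn* (0.0770 to 2.22), both with an interval that includes 1. In CD11c, *Lum* had 11, 0 and 0 counts with CGRP and 1 count in control, and *Podn* had 4, 0 and 4 counts with CGRP and none in control, at least 2.04-fold higher.

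*Ogn* (osteoglycin, also called mimecan, class III) was the most even of the 10 genes in IAIE control, at 2.17, 2.29 and 2.24 CPM from 7, 8 and 5 counts. In IAIE CGRP it had 4, 0 and 12 counts, and the ratio to control was 0.542 with an interval of 0.263 to 1.10. In CD11c it had 11, 0 and 0 counts with CGRP and 0, 0 and 2 in control, 4.21-fold (0.919 to 39.1). *Aspn* had 7, 2 and 2 counts in CD11c CGRP and 0, 0 and 1 in CD11c control, 8.42-fold with an interval of 1.22 to 363. *Omd* (osteomodulin) had 4 counts in all, 2 of them in 1 IAIE control library and 2 in 1 CD11c CGRP library, and a difference was not detectable at this depth.

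**Figure D4:**
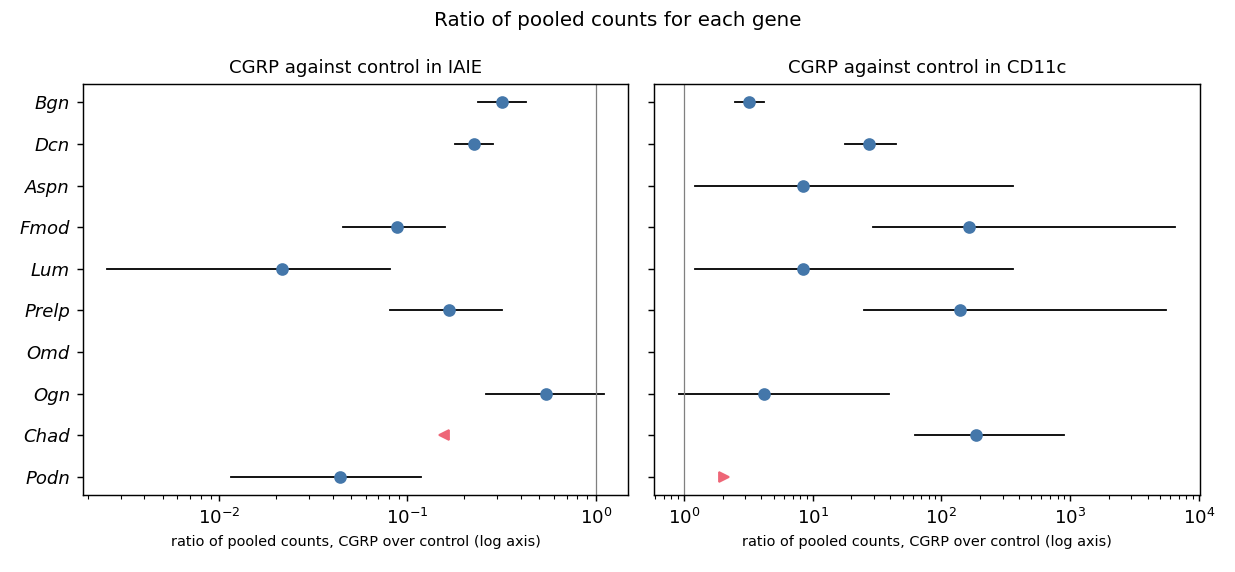
Ratio of pooled counts, CGRP over control, on a log axis (x axis) for each gene (y axis) in both subsets, with exact 95% intervals that cover counting error only, and triangles for bounds where a group had no count. Ratios are below 1 in IAIE and above 1 in CD11c for each gene with a value, and the *Ogn* intervals include 1 in both subsets; *Omd* has no value in either subset and *Aspn* none in IAIE.

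Levels were compared between genes as CPM per kb of exon sequence. *Dcn* came first in IAIE control at 5.84 ± 2.04 CPM per kb (SD, n = 3), followed by *Bgn* at 3.14 ± 2.71 and *Fmod* at 3.09 ± 4.35, and *Omd* was last at 0.133 ± 0.230. In IAIE CGRP *Dcn* was at 1.41 ± 1.42 and *Bgn* at 0.917 ± 0.375 CPM per kb. In CD11c control *Bgn* was at 1.60 ± 2.61 CPM per kb, from 1 library, and *Dcn* at 0.330 ± 0.0895. In CD11c CGRP *Chad* came first by its mean of 34.6 ± 52.0 CPM per kb and *Dcn* by its median of 9.82. No gene stood clear of its neighbour in the order: in each of the 4 groups the libraries of neighbouring genes overlapped.

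The other genes of the family gave little signal. Of 8 listed (*Kera*, *Epyc*, *Optc*, *Nyx*, *Tsku*, *Chadl*, *Podnl1* and *Ecm2*), 7 were in the files and none passed the filter. *Kera* (keratocan), which lies beside *Lum*, had 0 counts in 10 of the 12 libraries. *Podnl1* had 12, 0 and 3 counts in CD11c CGRP and 0, 2 and 0 in CD11c control, a ratio of 5.74 with an interval of 1.34 to 51.8, and *Ecm2*, beside *Aspn*, had 14, 0 and 0 against 0, 0 and 3.

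Genes that build the sugar chains of these proteins were tested as a list of 29, of which 23 passed the filter. With CGRP 1 rose and 1 fell in IAIE, and 0 rose and 1 fell in CD11c (edgeR), with medians of -0.22 and 0.18. Over all tested genes 5.32% rose and 3.89% fell in IAIE, and 6.29% rose and 4.59% fell in CD11c. In CD11c 2 genes of the list had an unadjusted p under 0.05 for a rise, and 0 were called by DESeq2 or limma-voom. *Chpf2*, a chondroitin polymerising factor, rose by 0.75 ± 0.23 in IAIE (adjusted p = 0.048). *Slc26a2*, the sulfate transporter, fell by 0.67 ± 0.19 in IAIE on the log2 scale (adjusted p = 0.032), and *Ust*, a uronyl sulfotransferase, fell by 0.56 ± 0.18 in CD11c (adjusted p = 0.049).

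Of 16 genes for enzymes and cofactors that process collagen and proteoglycans, 12 were tested, and 4 rose and 0 fell with CGRP in CD11c (edgeR), also 0 fell at an unadjusted p under 0.05, with DESeq2 and with limma-voom. Over all tested genes 6.29% rose and 4.59% fell in CD11c, and 5.32% rose and 3.89% fell in IAIE. Of the 4 that rose, *Adamts2* and *Lox* met the filter only through the CD11c CGRP libraries, so the count carries no weight as a share. The medians were 1.73 in CD11c and 0.23 in IAIE. *Mmp13*, a collagenase, was at 16.3 ± 2.30 CPM in CD11c control and 87.6 ± 8.10 CPM in CD11c CGRP (SD, n = 3), a rise of 2.42 ± 0.27 (adjusted p = 6.5e-06). *Mmp14* rose by 1.45 ± 0.24 (adjusted p = 0.00037) in CD11c and by 0.89 ± 0.24 in IAIE (adjusted p = 0.021). *Adamts2*, which trims procollagen, and *Lox*, which crosslinks collagen, had 1 and 0 counts in all of CD11c control. Pooled, *Adamts2* was 52.8-fold higher with CGRP, with an interval of 9.17 to 2117, and *Lox* at least 45.4-fold higher, and both passed the test (adjusted p = 0.0053 and 0.0011). In IAIE 1 of the 12 rose, *Mmp14*, and 1 fell, *Pcolce*, the procollagen C-proteinase enhancer, by 1.52 ± 0.44 (log2, adjusted p = 0.033), which is named because the count is small.

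Among 14 receptors and growth factors that these proteins can bind or signal through, 13 were tested. *Tlr4*, a receptor for soluble biglycan, rose with CGRP by 1.16 ± 0.19 in CD11c (adjusted p = 0.00028) and by 0.83 ± 0.18 in IAIE (adjusted p = 0.0061). *Met*, to which decorin binds, rose by 1.26 ± 0.30 (adjusted p = 0.0098) and by 1.66 ± 0.32 (adjusted p = 0.0019). In CD11c *Egfr* rose by 0.98 ± 0.26 (adjusted p = 0.020) and *Cd44*, the hyaluronan receptor, fell by 1.01 ± 0.12 (log2, adjusted p = 1.3e-05). In all, 4 rose and 1 fell in CD11c, the fourth being *P2rx7*, and 2 rose and 0 fell in IAIE (edgeR), with medians of 0.07 and 0.18. The shares over all tested genes were 6.29% higher and 4.59% lower in CD11c, and 5.32% higher and 3.89% lower in IAIE. In IAIE 1 gene fell at an unadjusted p under 0.05, and DESeq2 and limma-voom each called 1.

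Some markers of other joint cells moved with the 10 genes, and their part in these results was not tested. In bulk libraries fewer cells of a type and less RNA per cell cannot be told apart. The summed level of 7 tendon and ligament markers was 13.5 to 22.6 CPM in IAIE control, 1.13 to 3.40 in IAIE CGRP, 1.64 to 3.26 in CD11c control and 60.0 to 240 in CD11c CGRP. It was thus lower with CGRP in IAIE and higher with CGRP in CD11c without overlap, as the 10 genes were. All 3 of its tested genes, *Thbs4*, *Cilp* and *Cilp2*, rose with CGRP in CD11c, by 6.75 ± 0.73, 9.39 ± 1.42 and 4.86 ± 1.28, and are named because the count is small. *Cilp* and *Cilp2* met the filter only through the CD11c CGRP libraries, so this count carries no weight as a share. In those libraries *Cilp* had 316, 711 and 13 counts and *Cilp2* 67, 171 and 11, highest in replicate 2 as *Chad* was. *Thbs4* had 128, 84 and 297 counts there. *Cilp* thus had the most counts of the list in replicates 1 and 2, and *Thbs4* in replicate 3. *Cilp* and *Cilp2* encode cartilage intermediate layer proteins, so the sum of this list cannot be read as tendon and ligament alone. The tendon regulator *Scx* had a count in all 12 libraries, the tendon membrane protein *Tnmd* was at 0 in 6 and never above 9 counts, and *Kera* and *Fibin* were at 0 in 10 each. *Scx* did not move with CGRP in CD11c, with 3, 5 and 7 counts in control and 3, 4 and 6 with CGRP. *Tnmd* had 0, 0 and 2 counts in CD11c control and 5, 0 and 9 with CGRP.

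The 12 cartilage markers in the files summed to 14.9 to 24.6 CPM in IAIE control, 6.56 to 15.3 in IAIE CGRP and 8.88 to 14.3 in CD11c control. In CD11c CGRP they were at 59.3, 298 and 13.9 CPM, of which *Comp* alone was 29.5, 195 and 6.58 CPM. The libraries with the most *Chad* thus also had the highest sum of this list. *Col2a1*, the main collagen of cartilage, had 3, 116 and 1 counts in those libraries, and *Acan*, its main proteoglycan, had 37, 112 and 5. Elsewhere *Col2a1* had at most 8 counts and *Acan* at most 7, and each was at 0 in 4 libraries. *Comp*, a matrix protein of cartilage and tendon, was the tested marker that rose with CGRP in CD11c, by 5.21 ± 0.99 (adjusted p = 0.0014), 1 of 5 tested. In the CD11c CGRP libraries *Col11a1* had 37, 48 and 6 counts, but not all of the list followed. *Col9a1* had 2, 0 and 2 counts there, *Col9a2* 1, 0 and 1, and *Matn1* none. *Col11a2* had 15, 32 and 13 there against 9, 18 and 24 in CD11c control.

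The 15 fibroblast markers summed to 360 to 1551 CPM in IAIE control, 573 to 2208 in IAIE CGRP, 213 to 281 in CD11c control and 493 to 766 in CD11c CGRP. This sum overlapped between IAIE control and IAIE CGRP. In IAIE CGRP its highest counts were those of *Pdpn* (podoplanin), with 2392, 2129 and 3096 counts against 613, 609 and 363 in control and a rise of 1.72 ± 0.15 (adjusted p = 1.2e-06), and in replicate 1 also those of *Prg4* (lubricin), with 5416 counts there and 12 and 11 in the other replicates. Both are named for these counts, after their values were seen. In CD11c *Pdpn* also had the highest counts of the list in each library, with 619, 787 and 797 in control and 2132, 1280 and 2172 with CGRP. *Col1a1* had 2337 counts in IAIE control replicate 2, the library with the most *Lum* and *Podn*, against 113 and 205 in the other replicates, and *Pdgfra* was at 0 in 3 of the 12 libraries. Of the 12 tested markers, 4 fell and 1 rose with CGRP in IAIE, where *Col1a1* fell by 3.05 ± 0.77 (log2, adjusted p = 0.015), *Col1a2* by 2.37 ± 0.61 (adjusted p = 0.017) and *Col3a1* by 2.52 ± 0.67 (adjusted p = 0.022). These collagens were highest in IAIE control replicate 2, at 670, 284 and 356 CPM, and the groups overlapped. Control replicate 1 was at 35.1, 28.5 and 27.6 CPM, and the highest IAIE CGRP library of each gene at 53.5, 29.0 and 35.8 CPM. The fourth that fell was *Col6a3*, a chain of collagen VI, by 5.32 ± 1.02 (adjusted p = 0.0019), and the one that rose was *Pdpn*. In CD11c 3 rose, *Col6a3* by 7.36 ± 1.25 (adjusted p = 0.00049), *Pdpn* by 0.88 ± 0.15 (adjusted p = 0.00056) and *Col3a1* by 2.35 ± 0.75 (adjusted p = 0.049). Over all tested genes 3.89% fell and 5.32% rose in IAIE, and 6.29% rose in CD11c.

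The 9 mural markers (of smooth muscle and pericytes) followed another pattern, at 370, 56.4 and 200 CPM in the CD11c CGRP libraries and 26.4 to 33.5 CPM in CD11c control. CD11c CGRP replicate 2, the library with the most *Chad* and *Dcn*, had the least of them in its group. In that library *Acta2* and *Myh11* had 0 counts and *Cspg4* had 205. *Acta2* had 408 and 265 counts, and *Myh11* 1070 and 407, in replicates 1 and 3. Outside replicates 1 and 3 of CD11c CGRP, *Cspg4* had the most counts of the list in every library. The mural markers were at 56.8 to 72.6 CPM in IAIE control and 66.4 to 172 in IAIE CGRP. With CGRP in CD11c 6 of 7 tested rose (edgeR), where 6.29% of all tested genes rose. *Rgs5* and *Des* met the filter only through the CD11c CGRP libraries, so this count carries no weight as a share. *Tagln* and *Cnn1* were not tested, with 6, 1 and 3 and with 7, 0 and 6 counts in CD11c CGRP. The 8 endothelial markers summed to 11.1 to 106 CPM in CD11c CGRP and 12.4 to 129 in CD11c control, the highest being CD11c control replicate 1, where *Bgn* was also high, and to 11.2 to 37.4 CPM in IAIE. The 6 osteoblast markers in the files stayed between 6.20 and 19.8 CPM in all 12 libraries.

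**Figure D5:**
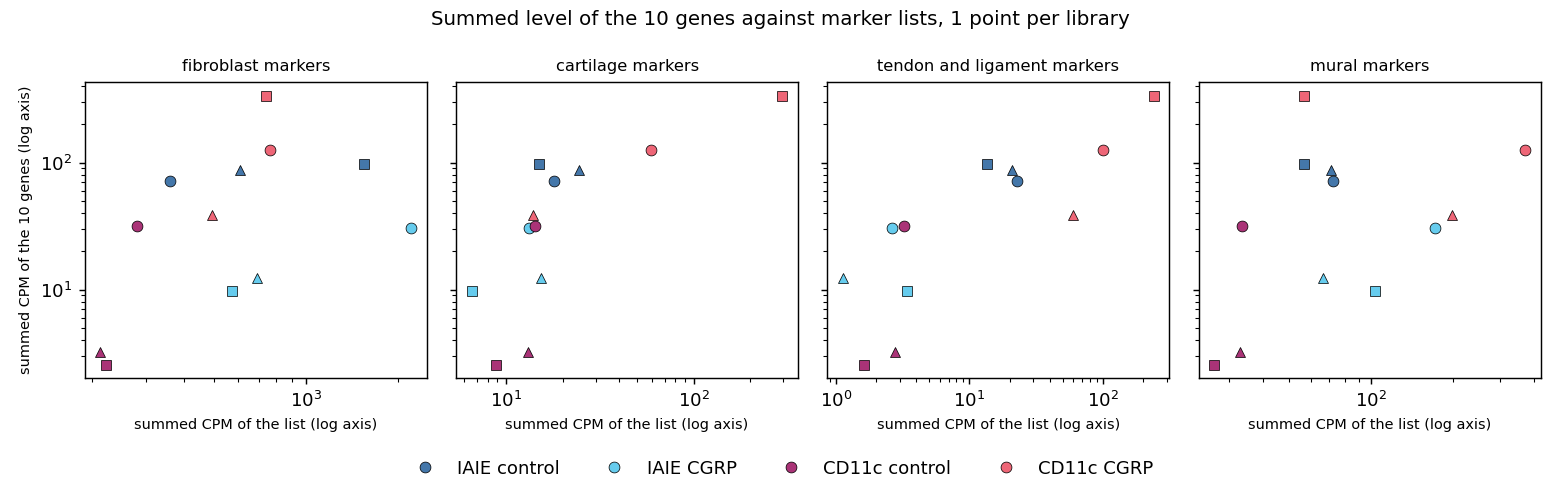
Summed CPM of the 10 genes (y axis, log) against the summed CPM of 4 marker lists (x axes, log), 1 point per library, coloured by group and shaped by replicate as in the plot of levels by gene. The CD11c CGRP libraries lie to the right for tendon and ligament markers, from 60.0 to 240 CPM, and are spread for mural markers.

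Over the 12 libraries *Dcn* and *Prelp* were the most alike of the 4 tested genes (Pearson r = 0.84 on log2(CPM + 1)), and *Bgn* and *Fmod* the least (r = 0.34). The 5 tested genes most like the mean of the 4 were *Serpina3n* (r = 0.92), *Col12a1* (0.91), *Tnxb* (0.90), *Htra1* (0.88) and *Igfbp7* (0.86). *Col12a1* and *Tnxb* encode matrix proteins, *Htra1* a secreted protease and *Igfbp7* a growth factor-binding protein. Most were low, with *Serpina3n* at 0 to 15 counts and *Col12a1* at 0 to 29 counts in a library. These values describe 12 libraries that share groups and depths, and carry no test.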

How the data were processed

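Bulk RNA-seq of 12 libraries (4 groups of 3) was analysed from gene counts. The authors prepared stranded total RNA libraries from 5 ng of RNA, trimmed reads with Trim Galore, used HISAT2 for alignment to mm10 and featureCounts for counts per gene; versions, annotation and strand setting are not given in the sources used here. The deposited values are raw counts for 26699 genes, not normalised. A combined table repeats them exactly, and 6 further columns of it, which no label maps to a sample, were not used. Groups were taken from the labels. No 2 libraries agreed within sampling noise.

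Counts were tested with edgeR 4.0.16 (quasi-likelihood F test, TMM scaling, filterByExpr with a minimum count of 10 and total of 15, 11927 genes), with all 12 libraries in 1 fit of group means, 5 contrasts, and Benjamini-Hochberg adjustment over all tested genes at 0.05. This replaces the DESeq2 workflow of the study, which was run as an alternative. The SE of a fold change is its size divided by the square root of F. The script was tested on simulated data. CPM is per TMM-scaled library. Where a group had no counts, 3 counts over the group were the floor; pooled ratios have exact (Clopper-Pearson) 95% intervals. Exon lengths and positions are from GENCODE vM21. Words of 31 bases shared with another gene made up at most 0.19% of each gene, except *Omd* (4.32%).

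Alternatives were RLE and upper-quartile scaling, no filter, DESeq2 1.42.0, limma-voom (limma 3.58.1) with quality weights, replicate number as a block, 1 surrogate variable (sva 3.50.0), CPM by library total and leaving out each library; thinning to the lowest library total was chosen after seeing the data. Same-numbered CGRP libraries of both subsets deviated together (r = 0.29, 0.15 and 0.17 over 7079 genes), so that number was used as a block within treatment; in no other pair of groups were all 3 values over 0.1. Named genes were all 10 members, up to 4 genes per pathway list with the smallest p in either CGRP comparison among those called, fixed marker genes and the 5 genes most like the members. The members and lists were chosen with earlier results of these data known.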

Additional observations from a re-analysis of the deposited data

Results flagged for a closer look

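The response to CGRP differed between the subsets for 3 genes by a test of the difference itself (edgeR's interaction, log2). The estimates were 6.96 for *Dcn* (adjusted p = 0.0090), 10.26 for *Fmod* and 9.34 for *Prelp* (both adjusted p = 0.015). *Fmod* and *Prelp* met the filter only through the CD11c CGRP libraries and had 1 count each over CD11c control. That 3 of the 4 tested genes were called therefore carries no weight as a share. All 3 calls were lost without CD11c control replicate 2, without CD11c control replicate 3 and with limma-voom (adjusted p = 0.26 to 0.45). The edgeR interaction test also called *Thbs4* (10.44, adjusted p = 2.7e-05) and *Cilp* (12.50, adjusted p = 0.045) from the list of tendon and ligament markers. It also called *Col6a3* (12.68, adjusted p = 0.0013) from the fibroblast list. Groups of 3 libraries are too small for the check for single far-off samples.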

How the results depend on the processing

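All 412 fold changes of *Bgn*, *Dcn*, *Fmod* and *Prelp* under the alternatives kept their direction, 359 of them also their side of the threshold, while 34 lost and 19 gained a call. They include fits that left out a library outside the comparison, which could hardly move its fold change. In IAIE, where 1 of the 4 was called, 4 were without the filter and none with DESeq2, limma-voom or 1 surrogate variable, and leaving out a library gave 0 to 2. For the interaction (3 called) limma-voom called none and leaving out a library gave 0 to 4. Subset differences called by limma-voom were 1 in control and 1 with CGRP. Over all genes the interaction count was 18, against 171 with no filter, 79 with DESeq2, 2 with limma-voom, 36 with the replicate block, 52 with the block within treatment, 38 with 1 surrogate variable and 6 to 29 leaving out a library; the CGRP count in IAIE was 1099, and 722 to 1122 leaving out a library. The paired fit within treatment changed no other call, with adjusted p for the interaction of 0.0032 (*Dcn*), 0.0088 (*Fmod*) and 0.024 (*Prelp*). Of genes that did not pass the filter, DESeq2 called *Chad* for CGRP in CD11c (adjusted p = 0.0084), the interaction (0.024) and the subsets with CGRP (0.00011), and *Podn* for the subsets in control (0.0012). Of 40 group levels, 1 moved by more than its SD with CPM by library total, *Ogn* in IAIE control, to 2.33 CPM. The cause of these changes was not tested. Of the 10 genes, 6 did not reach the filter's cutoff in 3 libraries: *Chad*, at 739 counts, reached it in 2, and the others in 1 or 0.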
